A study of Homo sapiens with 18 samples.

Results

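The 10 genes described here code for subunits of the transcription factor NF-kappaB and for products that restrain or follow its activity. They are the subunit genes NFKB1, NFKB2, RELA and RELB, the inhibitor gene NFKBIA and its nuclear relative NFKBIZ, the feedback genes TNFAIP3, TNIP1 and BIRC3, and the adhesion gene ICAM1. They were chosen by symbol and are 10 of the 40916 symbols in the count tables, and all 10 had counts in every library. Messenger RNA was counted in 18 libraries, 3 biological replicates in each of 6 groups. MCF10A is a non-transformed human mammary epithelial line, here expressing an H2B-GFP reporter, and HCT116 is a human colorectal carcinoma line, here unlabelled and p53-null. Each line was grown alone, and both were grown together in cultures set up with 50% of each. Every kind of culture had a non-irradiated group (NIR) and a group given 10 Gy of ionizing radiation (IR). Harvest was at day 2 by the titles, but at 72 hours after irradiation by the series text. MCF10A was grown with horse serum, EGF, hydrocortisone, cholera toxin and insulin, and HCT116 in McCoy's 5A medium with fetal bovine serum, so line and medium cannot be told apart. The sources used here do not say which medium the mixtures had, and each line is a single established line.

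NF-kappaB is a family of dimeric transcription factors. RELA (p65) and p50, the processed product of NFKB1, form the dimer of the canonical pathway, which is held in the cytoplasm by IkappaB-alpha, the product of NFKBIA, until a kinase complex marks that inhibitor for degradation. RELB and p52, the processed product of NFKB2, form the dimer of the non-canonical pathway. NFKBIA, TNFAIP3, TNIP1 and BIRC3 are textbook targets that feed back on the pathway: IkappaB-alpha recaptures nuclear dimers, A20 (TNFAIP3) and its binding partner ABIN-1 (TNIP1) act on ubiquitin chains upstream of the kinase, and cIAP2 (BIRC3) is a ubiquitin ligase of the receptor complexes. NFKBIZ codes for a nuclear IkappaB protein that co-activates a subset of target genes. ICAM1 codes for an adhesion molecule for leukocytes and is widely used as a readout of the pathway. DNA damage is known to activate NF-kappaB through the kinase ATM and the scaffold NEMO (IKBKG).

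The promoters are shown because the pathway's own genes are known to carry kappaB motifs, and the data below bear on how these genes moved. Promoter windows from 250 bases before to 50 after each annotated start were taken from a RefSeq table on GRCh38.p14, in which 9 of the 10 genes were matched, RELB being the gene with no entry. Windows were searched on both strands for the 10-base kappaB consensus, for the shorter kappaB pattern GGAAANNCC and for TATAAA; the first pair of patterns overlap each other. At least 1 window of 8 of the 9 genes held either kappaB pattern, against 12.5% of the 27305 genes in the table, and RELA was the gene without a match. The consensus itself was matched in 7 of 9 genes, against 7.09% of all, and GGAAANNCC in 8 of 9, against 7.61%. TATAAA was matched in ICAM1, NFKBIA and NFKBIZ, which is 3 of 9 against 14.0%. A match describes letters and is not evidence of binding. For each gene the match nearest to the annotated start of its window was taken, over all windows of the gene. By the loci given further on, the matches taken for NFKB2, TNIP1, TNFAIP3 and ICAM1 lie inside the gene. Below are 30 bases around that match in each of the 8 genes, or around an adjacent pair of matches in TNFAIP3. They are written 5′ to 3′ on the gene's strand with the match in capitals.
NFKB1: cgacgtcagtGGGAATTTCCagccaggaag
NFKB2: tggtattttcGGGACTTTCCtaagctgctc
NFKBIA: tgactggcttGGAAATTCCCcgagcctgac
NFKBIZ: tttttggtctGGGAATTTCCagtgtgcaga
TNFAIP3: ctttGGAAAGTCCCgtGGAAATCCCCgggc
TNIP1: ccagtctccgGGGACTTTCCcaggggtggg
BIRC3: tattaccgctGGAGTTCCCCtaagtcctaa
ICAM1: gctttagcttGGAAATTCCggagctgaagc
These lie at chr4:102501300-102501329 (plus strand, match at -49 to -40 from the start), chr10:102395674-102395703 (plus, -21 to -12), chr14:35404811-35404840 (minus, -81 to -72), chr3:101827757-101827786 (plus, -223 to -214), chr6:137867188-137867217 (plus, -67 to -46), chr5:151081057-151081086 (minus, -42 to -33), chr11:102317339-102317368 (plus, -135 to -126) and chr19:10270924-10270953 (plus, -186 to -178), in the order of the lines above.

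The matched letters recur between genes. GGGAATTTCC stands on the gene's strand in NFKB1 and NFKBIZ and on the opposite strand in NFKBIA. GGGACTTTCC is shared by NFKB2, TNIP1 and, on the opposite strand, the more distant match of TNFAIP3. The nearer match of TNFAIP3 and a more distant match of BIRC3 both read GGGGATTTCC on the opposite strand. In ICAM1 only the 9-base pattern was matched, with 1 base fewer than the consensus. As examples of the inhibitor, the nuclear relative and a feedback gene, the stretch of the window that lies outside annotated exons is given in full, with kappaB matches in capitals: NFKBIA at chr14:35404750-35404999 (minus strand), NFKBIZ at chr3:101827740-101827989 (plus) and BIRC3 at chr11:102317234-102317449 (plus).
NFKBIA: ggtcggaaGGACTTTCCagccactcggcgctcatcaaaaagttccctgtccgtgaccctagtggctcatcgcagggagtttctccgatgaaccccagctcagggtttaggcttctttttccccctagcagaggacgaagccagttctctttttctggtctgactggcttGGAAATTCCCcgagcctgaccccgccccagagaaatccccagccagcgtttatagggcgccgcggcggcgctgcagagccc
NFKBIZ: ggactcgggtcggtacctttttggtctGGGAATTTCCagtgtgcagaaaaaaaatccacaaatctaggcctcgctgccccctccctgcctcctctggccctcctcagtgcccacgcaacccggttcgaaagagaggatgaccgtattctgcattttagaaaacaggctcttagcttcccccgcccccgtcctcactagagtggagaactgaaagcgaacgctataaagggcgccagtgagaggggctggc
BIRC3: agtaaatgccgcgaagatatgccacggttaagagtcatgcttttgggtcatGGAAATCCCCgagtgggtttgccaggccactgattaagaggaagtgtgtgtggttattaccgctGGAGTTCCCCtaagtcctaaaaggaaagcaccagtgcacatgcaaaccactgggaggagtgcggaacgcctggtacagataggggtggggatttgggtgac

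The libraries held 25.7 to 40.8 M counts, and levels below are CPM, counts per M counts of the library. The smallest count of any of the 10 genes in a library was 17. By markers of the lines, 10 basal mammary markers summed to 11071 to 12013 CPM in MCF10A NIR and to 866 to 947 CPM in HCT116 NIR, and 10 intestinal markers summed to 9.15 to 11.2 and 1181 to 1456 CPM, although in HCT116 CDX1 was at 0 and 5 of these 10 had means under 1 CPM. Of the basal markers, CDH3 was higher in HCT116 NIR, at 196 against 147 CPM in MCF10A NIR. The other 9 were lower in HCT116 NIR, although EGFR and ITGB4 were still at 174 and 477 CPM there. Markers of leukocytes summed to at most 0.833 CPM in any library, and 3 fibroblast markers to 6.11 to 7.47 CPM in MCF10A NIR and 39.2 to 47.2 CPM in HCT116 NIR. COL1A1 made up nearly all of these fibroblast sums, with means of 6.52 and 42.2 CPM. The other 2 fibroblast markers had means under 1 CPM. The part of these markers in the results was not tested. The mixed libraries did not hold their labelled proportions of RNA. By genes specific to one line, MCF10A RNA made up 0.503%, 0.438% and 0.399% of the NIR libraries and 1.29%, 1.17% and 1.27% of the IR libraries. The means were 0.447% ± 0.0528 and 1.24% ± 0.0662 (SD, n = 3), and the 2-sided exact permutation p was 0.1, the smallest that 3 against 3 libraries allow. The same estimate in HCT116 libraries held out in turn gave 0.00873% to 0.127%. Fewer MCF10A cells in the culture, fewer in the harvested sample and less RNA per MCF10A cell cannot be told apart. The cause of the low share was not tested, and the mixed libraries are read below as nearly all HCT116 RNA.

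The loci are given in GRCh38 coordinates from GENCODE 29; counts cover exons, and all 10 genes are protein-coding. NFKB1 lies at chr4:102501329-102617302, NFKB2 at chr10:102394110-102402529, and BIRC3 at chr11:102317450-102339403, each on the plus strand. RELA lies at chr11:65653596-65663094 on the minus strand and RELB at chr19:45001430-45038198 on the plus strand. NFKBIA lies at chr14:35401511-35404749 and TNIP1 at chr5:151029945-151093577, both on the minus strand. NFKBIZ at chr3:101827991-101861022, TNFAIP3 at chr6:137867188-137883312 and ICAM1 at chr19:10270835-10286615 are on the plus strand. Transcripts on the opposite strand overlap exon bases of ICAM1 (22.0% for 1 gene and 1.65% for another), TNFAIP3 (1.88%) and RELA (0.165%). Whether counting used the strand is not given in the sources used here, so reads of these transcripts cannot be told apart from those of the genes there.

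Without irradiation, the inhibitor, feedback and adhesion genes were far higher in MCF10A than in HCT116, while the subunit genes were divided. Differences were tested with edgeR's quasi-likelihood test on raw counts, p-values were adjusted with Benjamini-Hochberg over all genes tested, and a gene was called at an adjusted p under 0.05. All 10 genes were called between the lines in NIR cultures, 8 lower and 2 higher in HCT116. Among all 16568 genes tested, 74.8% were called, 36.1% lower and 38.7% higher in HCT116. The median log2 fold change of the 10 genes was -2.74, against 0.05 over all genes.

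NFKB1 stood at 122, 114 and 107 CPM in MCF10A NIR and at 38.8, 39.1 and 39.0 CPM in HCT116 NIR, a log2 difference of -1.75 (SE 0.064, adjusted p 4.1e-14). RELB was at 12.7, 15.2 and 12.4 CPM against 7.64, 7.68 and 7.93 CPM, a log2 difference of -1.0 (SE 0.133, adjusted p 2.4e-06). NFKB2 went the other way, with 74.9, 76.6 and 77.8 CPM in MCF10A and 138, 128 and 141 CPM in HCT116 (0.63, SE 0.058, adjusted p 2.1e-08). For none of these 3 subunit genes did the libraries of the lines overlap. RELA was at 61.8, 58.8 and 59.5 CPM against 72.2, 80.6 and 80.5 CPM, which gave 0.18 (SE 0.066, adjusted p 0.023). That call was lost when any of 5 of the 6 libraries was left out, all but HCT116 NIR replicate 1, with values of 0.13 to 0.18 and adjusted p from 0.0518 to 0.096.

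The genes that act on the pathway differed most. NFKBIA was at 110.3, 121 and 119 CPM in MCF10A NIR and at 11.9, 17.8 and 12.4 CPM in HCT116 NIR, 9.54-fold lower in HCT116 (log2 -3.25, SE 0.110, adjusted p 1.4e-14). NFKBIZ, at 55.8, 57.7 and 52.0 against 9.55, 8.89 and 10.8 CPM, was 6.52-fold lower (log2 -2.71, SE 0.095, adjusted p 2.2e-14). No library of one line reached the range of the other for either IkappaB gene. The A20 gene TNFAIP3 stood at 105, 100.0 and 105 CPM against 6.42, 6.28 and 6.99 CPM, 18.1-fold lower in HCT116 (log2 -4.18, SE 0.079, adjusted p 4.7e-18). Its partner TNIP1 stood at 359, 357 and 374 CPM against 54.1, 65.7 and 63.4 CPM, 6.83-fold lower (log2 -2.77, SE 0.069, adjusted p 1.7e-16). BIRC3 stood at 221, 222 and 239.6 CPM against 24.2, 26 and 25.3 CPM, 10.4-fold lower (log2 -3.38, SE 0.062, adjusted p 3.2e-18). These 3 feedback genes were thus separated by line in every library. ICAM1 had the widest gap of the 10: 22.4, 20.1 and 22.4 CPM against 1.04, 0.901 and 0.905 CPM, 25.9-fold lower in HCT116 (log2 -4.70, SE 0.157, adjusted p 1.2e-14).

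**Figure D1:**
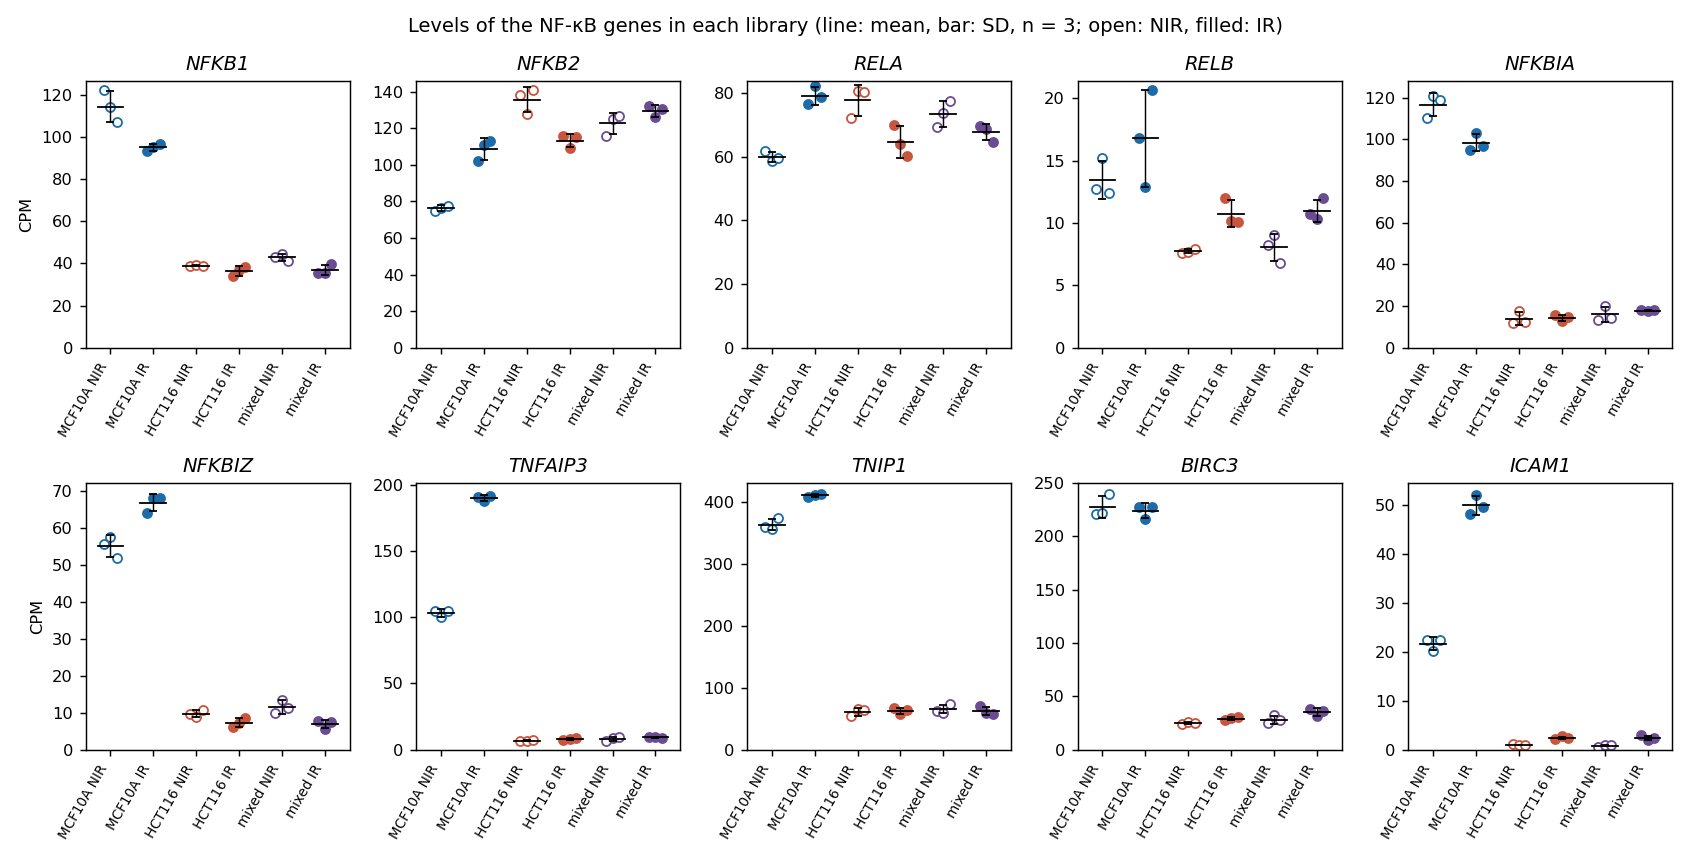
Level of each of the 10 genes in CPM (vertical axis, each panel its own scale from 0) in the 18 libraries, grouped by culture and treatment; open points are NIR libraries and filled points IR libraries, with the group mean and SD (n = 3). NFKBIA, NFKBIZ, TNFAIP3, TNIP1, BIRC3 and ICAM1 were high in the MCF10A libraries, while RELA lay between 58.8 and 82.1 CPM in every library.

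In irradiated cultures the fit called all 10 genes lower in HCT116 than in MCF10A, against 36.8% lower and 38.1% higher of the 16932 genes tested and 74.9% called in either direction. For 9 of the 10 the group means in CPM had the same order, and NFKB2 was the exception. RELA was called on the other side of 0 from the NIR comparison. RELA was at 76.5, 82.1 and 78.9 CPM in MCF10A IR and at 69.9, 64.1 and 60.1 CPM in HCT116 IR (log2 -0.52, SE 0.064, adjusted p 6.4e-08). NFKB2 was at 102, 111 and 113 CPM against 116, 109 and 115 CPM, ranges that overlap on the CPM scale, with means of 109 ± 6.16 and 113 ± 4.02 CPM (SD, n = 3). With the TMM scaling of the fit the log2 difference of NFKB2 was -0.17 (SE 0.056, adjusted p 0.0078), with upper-quartile factors it was 0.01 (adjusted p 0.861), and with all 18 libraries in the fit it was -0.10 (adjusted p 0.126). The direction of NFKB2 in irradiated cultures thus depended on the scaling. TNFAIP3 was 28.3-fold lower in HCT116 IR (log2 -4.82, SE 0.068, adjusted p 1.4e-27), NFKBIZ 10.8-fold (log2 -3.44, SE 0.096, adjusted p 2.9e-21) and ICAM1 23.9-fold (log2 -4.58, SE 0.110, adjusted p 1.2e-22). For the other 5 genes the log2 difference in IR cultures lay between -3.18 for BIRC3 and -0.88 for RELB.

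**Figure D2:**
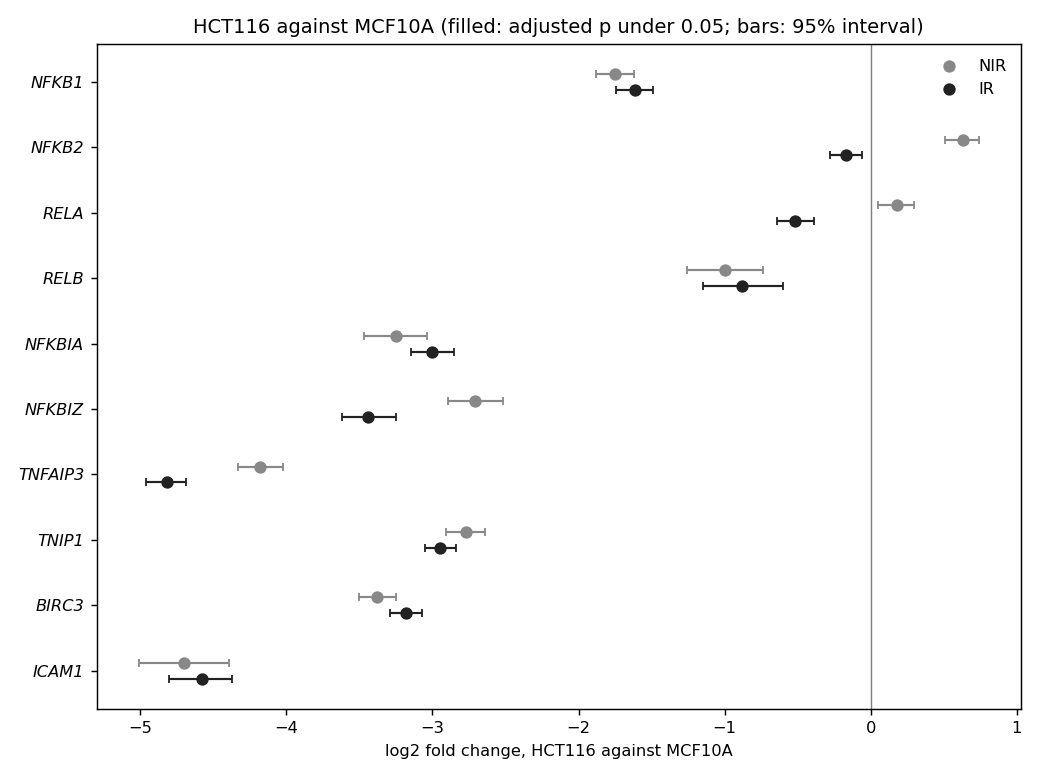
Log2 fold change of HCT116 against MCF10A (horizontal axis) for each gene in NIR (grey) and IR (black) cultures, with 95% intervals from the fit; filled points have an adjusted p under 0.05. RELA and NFKB2 lie at 0.18 and 0.63 in NIR cultures and at -0.52 and -0.17 in IR cultures (the last is 0.01 with upper-quartile factors), and ICAM1 and TNFAIP3 lie farthest to the left.

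Irradiation raised 6 of the 10 genes in MCF10A and lowered 2, where 26.2% of the 15154 genes tested rose, 29.2% fell and 55.4% were called in all. In HCT116 it raised 3 and lowered 3, where 25.3% of 16857 genes rose, 27.2% fell and 52.5% were called. The median log2 change of the 10 genes was 0.28 in MCF10A and 0.05 in HCT116, against 0.00 and 0.01 over all genes. The difference between the responses, HCT116 minus MCF10A, was tested as an interaction in a fit over the 12 monoculture libraries. It was called for NFKB2, RELA, NFKBIZ and TNFAIP3, all lower in HCT116, where 21.9% of 18179 genes were called lower, 15.4% higher and 37.3% in all. In that fit the median over all genes was itself -0.10, so the differences below are to be read against it. All 4 calls were kept under each of the 20 alternatives run.

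Of the 4 subunit genes, NFKB2 and RELA had a called difference in response between the lines. NFKB2 rose in MCF10A from 74.9, 76.6 and 77.8 CPM to 102, 111 and 113 CPM (log2 0.49, SE 0.054, adjusted p 9.3e-09), and no library overlapped. In HCT116 it fell from 138, 128 and 141 CPM to 116, 109 and 115 CPM (log2 -0.25, SE 0.062, adjusted p 0.0015). The responses differed by -0.82 (SE 0.082, adjusted p 1.5e-08). RELA did the same: 61.8, 58.8 and 59.5 CPM became 76.5, 82.1 and 78.9 CPM in MCF10A (log2 0.38, SE 0.056, adjusted p 1.6e-06). In HCT116, 72.2, 80.6 and 80.5 CPM became 69.9, 64.1 and 60.1 CPM (log2 -0.26, SE 0.073, adjusted p 0.0049), and the call was lost without HCT116 IR replicate 3 (-0.20, adjusted p 0.0505). The responses of RELA differed by -0.71 (SE 0.094, adjusted p 1.2e-06). For both genes the NIR and IR libraries were separate in each line, with the order of the treatments turned round.

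NFKB1, the precursor gene of p50, fell in MCF10A from 122, 114 and 107 CPM to 93.3, 95 and 96.7 CPM (log2 -0.29, SE 0.052, adjusted p 2.8e-05). In HCT116, with 38.8, 39.1 and 39.0 CPM before and 34, 37.0 and 38.4 CPM after, the change was -0.09 with a 95% interval of -0.24 to 0.07 (adjusted p 0.366). The difference of 0.12 between these responses was not called (interval -0.05 to 0.29, adjusted p 0.30), but was with mitochondrially encoded genes left out (0.22, adjusted p 0.0472). RELB was at 12.7, 15.2 and 12.4 CPM in MCF10A NIR and at 16.8, 12.9 and 20.7 CPM in MCF10A IR, the largest coefficient of variation of any group among the 10 genes (23.4%). Its change there was 0.30 with an interval of 0.05 to 0.56 (adjusted p 0.0505); RELB was called there in 7 of 14 alternatives. These were RLE factors (0.32), upper-quartile factors (0.39), mitochondrially encoded genes left out (0.30), no filter (0.29) and halved counts (0.32), with adjusted p from 0.015 to 0.0492, and the fits without MCF10A NIR replicate 2 (0.41, adjusted p 0.014) or MCF10A IR replicate 2 (0.45, adjusted p 0.0033). In HCT116 RELB rose from 7.64, 7.68 and 7.93 CPM to 12.0, 10.2 and 10.1 CPM with no overlap (log2 0.48, SE 0.135, adjusted p 0.0044). The difference for RELB was 0.10 (interval -0.30 to 0.50, adjusted p 0.755).

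The ratio of NFKB2 to NFKB1 counts, which is not corrected for gene length and is compared here only between groups, set the groups apart. It was 0.616, 0.674 and 0.724 in MCF10A NIR and 1.09, 1.17 and 1.17 in MCF10A IR. In HCT116 it was 3.56, 3.27 and 3.61 without irradiation and 3.41, 2.94 and 3.00 with it, and these ranges overlap. MCF10A libraries were thus the lowest in both treatments and moved up with irradiation. The mixed cultures had 2.68, 2.80 and 3.10 in NIR and 3.70, 3.56 and 3.28 in IR libraries. The ratio of RELB to RELA counts was 0.224 ± 0.0294 in MCF10A NIR and 0.213 ± 0.0532 in MCF10A IR, and 0.0998 ± 0.00538 and 0.166 ± 0.00687 in HCT116 (SD, n = 3). These ratios were described without a test.

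**Figure D3:**
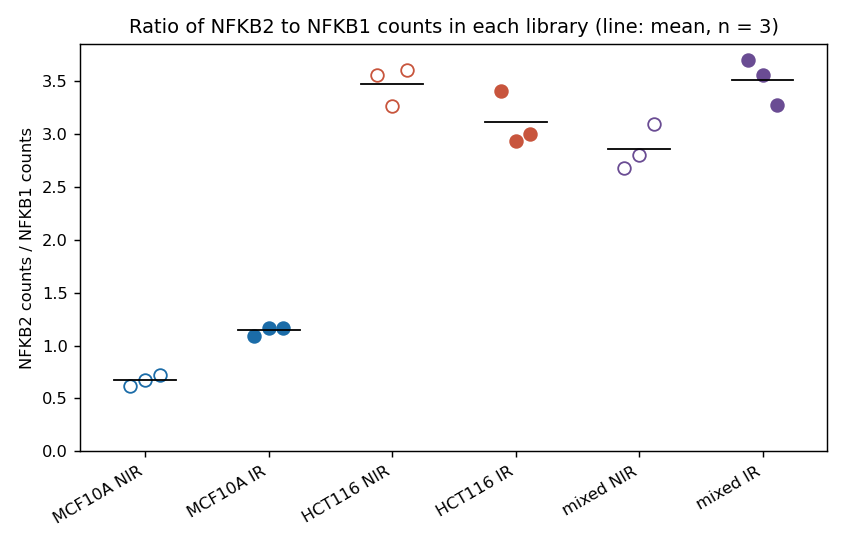
Ratio of NFKB2 to NFKB1 counts (vertical axis) in each library, with the group mean as a line (n = 3); open points are NIR and filled points IR. All 6 MCF10A libraries lie at or below 1.17, and the 12 HCT116 and mixed libraries lie between 2.68 and 3.70.

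Of the IkappaB genes, NFKBIZ had a called difference in response and NFKBIA did not. NFKBIA fell in MCF10A from 110.3, 121 and 119 CPM to 95.1, 103 and 97.0 CPM with no overlap (log2 -0.27, SE 0.053, adjusted p 9.0e-05). In HCT116 it was at 11.9, 17.8 and 12.4 CPM and then at 15.8, 12.9 and 14.6 CPM, overlapping ranges, with a change of 0.05 (interval -0.22 to 0.32, adjusted p 0.789). The difference for NFKBIA was 0.24 (interval -0.04 to 0.51, adjusted p 0.206). It was called where no filter was applied (0.34, adjusted p 0.011), without HCT116 NIR replicate 2 (0.44, adjusted p 0.0045), the library at 17.8 CPM, and without HCT116 IR replicate 2 (0.42, adjusted p 0.029). NFKBIZ rose in MCF10A from 55.8, 57.7 and 52.0 CPM to 64.2, 68.1 and 68.2 CPM (log2 0.25, SE 0.061, adjusted p 7.5e-04). In HCT116 it fell from 9.55, 8.89 and 10.8 CPM to 6.15, 7.13 and 8.63 CPM (log2 -0.41, SE 0.150, adjusted p 0.025). That fall was not called without HCT116 NIR replicate 3 (-0.33, adjusted p 0.10), HCT116 IR replicate 1 (-0.30, adjusted p 0.128) or HCT116 IR replicate 2 (-0.40, adjusted p 0.061). The responses of NFKBIZ differed by -0.75 (SE 0.138, adjusted p 1.1e-04).

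Among the feedback genes, TNFAIP3 moved most. It rose in MCF10A from 105, 100.0 and 105 CPM to 191, 188 and 192 CPM, 1.81-fold (log2 0.86, SE 0.045, adjusted p 2.0e-15). In HCT116 it was at 6.42, 6.28 and 6.99 CPM and then at 7.40, 7.66 and 8.70 CPM, a change of 0.28 (interval -0.01 to 0.57, adjusted p 0.122). Neither line had overlapping libraries, and the difference between the lines was called, at -0.66 (SE 0.101, adjusted p 9.7e-06). In the fit over all 18 libraries, TNFAIP3 was called in HCT116 too (0.29, adjusted p 0.018). TNIP1 rose in MCF10A from 359, 357 and 374 CPM to 408, 411 and 413 CPM, which is 1.11-fold (log2 0.15, SE 0.039, adjusted p 0.0013). In HCT116 it was at 54.1, 65.7 and 63.4 and then at 66.7, 57.2 and 63.9 CPM, a change of 0.04 (interval -0.11 to 0.20, adjusted p 0.683). The difference for TNIP1 was -0.19 (interval -0.36 to -0.02, adjusted p 0.098) and was called without HCT116 NIR replicate 1 (-0.28, adjusted p 0.0056) or HCT116 IR replicate 1 (-0.24, adjusted p 0.040).

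BIRC3 was the feedback gene with no called change in MCF10A: 221, 222 and 239.6 CPM in NIR and 228, 216 and 228 CPM in IR libraries gave -0.04 (interval -0.13 to 0.04, adjusted p 0.412). In HCT116 it went from 24.2, 26 and 25.3 CPM to 27.8, 29.2 and 30.3 CPM, with no overlap (log2 0.22, SE 0.088, adjusted p 0.043). That call was lost when any 1 library other than HCT116 IR replicate 1 was left out, with values of 0.18 to 0.24 and adjusted p from 0.061 to 0.157, and with all 6 libraries where no filter was applied (0.21, adjusted p 0.094). The difference for BIRC3 was 0.18 (interval 0.03 to 0.34, adjusted p 0.074) and was called in 10 of 20 alternatives, with values of 0.21 to 0.30. They included the fits without any 1 of the MCF10A IR libraries (0.27 to 0.30) and without HCT116 IR replicate 1 (0.21, adjusted p 0.0488) or 2 (0.28, adjusted p 0.012).

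ICAM1, the adhesion gene, rose in both lines. In MCF10A it went from 22.4, 20.1 and 22.4 CPM to 48.1, 51.9 and 49.6 CPM, 2.27-fold (log2 1.19, SE 0.075, adjusted p 1.2e-13). In HCT116 it went from 1.04, 0.901 and 0.905 CPM to 2.22, 2.67 and 2.37 CPM, 2.56-fold (log2 1.36, SE 0.312, adjusted p 8.2e-04). No library overlapped between treatments in either line, and the highest HCT116 IR library stayed below the lowest MCF10A NIR library. The responses differed by 0.10 with an interval of -0.28 to 0.47 (adjusted p 0.753), which does not show that they were equal. ICAM1 was called in all 14 alternatives in each line. In the fit as designed it was the one gene of the 10 called higher in both lines, and RELB was a further one in 7 of the alternatives for MCF10A.

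**Figure D4:**
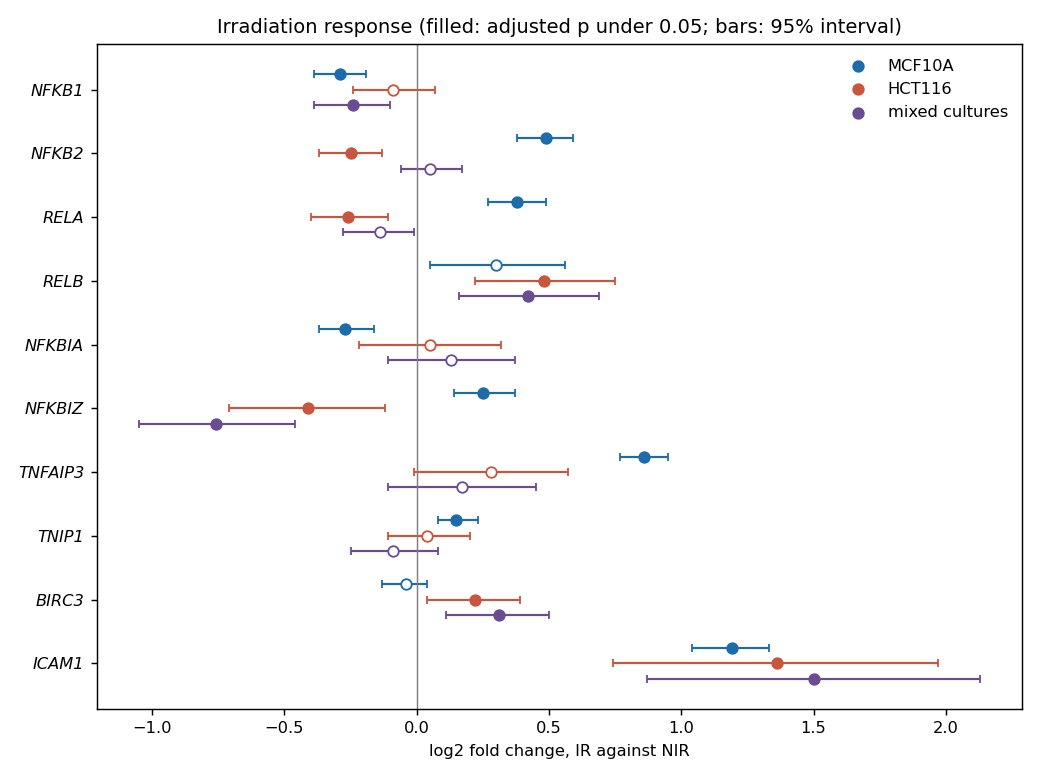
Log2 fold change of IR against NIR (horizontal axis) for each gene in MCF10A, HCT116 and mixed cultures, with 95% intervals; filled points have an adjusted p under 0.05. NFKB2, RELA and NFKBIZ are called on opposite sides of 0 in MCF10A and HCT116, and ICAM1 lies between 1.19 and 1.5 in all 3 kinds of culture.

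In the mixed cultures, irradiation raised RELB, BIRC3 and ICAM1 and lowered NFKB1 and NFKBIZ, which is 3 and 2 of 10 where 24.0% of 16906 genes rose, 25.4% fell and 49.4% were called. NFKBIZ fell from 9.84, 13.5 and 11.3 CPM to 7.82, 5.69 and 7.45 CPM, 1.69-fold (log2 -0.76, SE 0.151, adjusted p 2.6e-04). ICAM1 rose from 0.608, 0.952 and 0.889 CPM to 2.89, 1.92 and 2.32 CPM, 2.83-fold (log2 1.5, SE 0.320, adjusted p 5.2e-04). NFKB1 fell from 43.2, 44.4 and 41.0 CPM to 35.6, 35.5 and 39.7 CPM (log2 -0.24, SE 0.075, adjusted p 0.010). For these 3 genes no NIR library of the mixtures fell within the IR range, and each call was kept in all 14 alternatives. RELB rose from 8.27, 9.03 and 6.84 CPM to 10.7, 10.3 and 12.0 CPM (log2 0.42, SE 0.135, adjusted p 0.013). It was not called without mixed NIR replicate 3 (0.30, adjusted p 0.082) or mixed IR replicate 3 (0.35, adjusted p 0.071). BIRC3 went from 24.5, 32.2 and 27.3 CPM to 38.5, 31.7 and 35.9 CPM, overlapping ranges (log2 0.31, SE 0.099, adjusted p 0.014). It was not called without mixed NIR replicate 1 (0.21, adjusted p 0.091) or mixed IR replicate 1 (0.23, adjusted p 0.088).

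The other 5 genes were not called in the mixtures. RELA had 69.3, 73.8 and 77.4 CPM and then 69.6, 68.8 and 64.8 CPM (log2 -0.14, interval -0.28 to -0.01, adjusted p 0.082), and was called without mixed NIR replicate 1 (-0.20, adjusted p 0.029). NFKBIA had 13.6, 20.1 and 14.4 CPM and then 18.1, 17.5 and 18.1 CPM (0.13, interval -0.11 to 0.37, adjusted p 0.412), and was called without mixed NIR replicate 2 (0.33, adjusted p 0.021), the library at 20.1 CPM. NFKB2, TNFAIP3 and TNIP1 changed by 0.05, 0.17 and -0.09, with intervals of -0.06 to 0.17, -0.11 to 0.45 and -0.25 to 0.08. The small share of MCF10A RNA weighs unequally on these genes because their levels in the lines differ so much. Multiplying the share by the MCF10A monoculture level gave 0.619 of the 2.38 CPM of ICAM1 in mixed IR cultures, or 26%, and 2.36 of the 9.27 CPM of TNFAIP3, or 25.5%. In mixed NIR cultures the same gave 11.8% for ICAM1 and 5.73% for TNFAIP3, and at most 3.63% for the other 8 genes. In mixed IR cultures it gave 11.9% for NFKBIZ, 8.16% for TNIP1, 7.86% for BIRC3, 6.82% for NFKBIA and at most 3.19% for the remaining 4. These figures assume monoculture levels for the MCF10A RNA in the mixtures, which need not hold for every gene. Examples chosen after their values were seen are S100A9 and TGFBI. They were at 349 and 3299 CPM in MCF10A IR and at 0 and 124 CPM in mixed IR cultures. The lines' levels weighted by share summed to 3.01 CPM for ICAM1 and 10.2 CPM for TNFAIP3 in mixed IR cultures, above those measured. For NFKB2 and BIRC3, given below, the sums lay under the measured levels. The part of the changed share in the mixed responses was not tested.

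Mixed cultures were then compared with HCT116 alone at the same treatment. In NIR cultures none of the 10 genes was called by edgeR's quasi-likelihood test, where 2.04% of 16455 genes were (0.887% higher and 1.15% lower), and DESeq2 called 0 as well; at an unadjusted p under 0.05 both gave 0 of 10. The largest difference was 0.32 for TNFAIP3 (interval 0.01 to 0.62, adjusted p 0.364), which was called in the fit over all 18 libraries (0.34, adjusted p 0.0495). The intervals use a normal quantile and are narrower than the quasi-likelihood test allows, so an interval can leave out 0 where the unadjusted p is above 0.05. In IR cultures NFKB2 (0.18, SE 0.055, adjusted p 0.031) and BIRC3 (0.27, SE 0.084, adjusted p 0.038) were called higher in the mixtures, where 5.08% of 17137 genes were called higher, 3.48% lower and 8.56% in all. NFKB2 stood at 132, 126 and 130.3 CPM in the mixtures against 116, 109 and 115 CPM in HCT116 alone. BIRC3 stood at 38.5, 31.7 and 35.9 CPM against 27.8, 29.2 and 30.3 CPM. Neither gene's libraries overlapped, yet each call was lost in 5 of the 6 fits with 1 library left out, all but HCT116 IR replicate 1 for NFKB2 and all but mixed IR replicate 2 for BIRC3. Values in those fits ranged from 0.16 to 0.20 for NFKB2 and from 0.20 to 0.30 for BIRC3. By the same multiplication, MCF10A RNA would make up 1.35 CPM of NFKB2 and 2.78 CPM of BIRC3 in mixed IR cultures. Both lines' levels weighted by their shares summed to 113 and 31.5 CPM, against the measured 129.5 and 35.4 CPM.

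The irradiation response of the mixtures was not called different from that of HCT116 alone for any of the 10 genes, where 0.830% of 18072 genes were (0.681% with a higher and 0.149% with a lower response in the mixtures). At an unadjusted p under 0.05 edgeR gave 1 gene, NFKB2 (0.32, interval 0.15 to 0.48, adjusted p 0.074), which DESeq2 called (0.30, adjusted p 0.026). The comparisons of irradiation in HCT116 and in the mixtures, and of mixtures with HCT116, share libraries, so these values are not independent of each other.

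Other genes of the pathway were taken from 3 lists written by symbol. Of 11 other core genes, coding for further Rel and IkappaB proteins and for the kinases, 2 rose (IKBKE, NFKBIE) and 3 fell (REL, CHUK, TBK1) in MCF10A after irradiation. In HCT116, 3 rose (IKBKE, CHUK, TBK1) and 2 fell (REL, BCL3), and the medians were -0.07 and 0.18. That is 5 of 11 in each line, where 55.4% of all genes were called in MCF10A and 52.5% in HCT116. IKBKE in MCF10A was close to the threshold (log2 0.20, adjusted p 0.0494). In MCF10A, 1 rose and 3 fell without the filter, and 1 rose and 2 fell with all 18 libraries in the fit. With upper-quartile factors, 2 rose and 1 fell there. In HCT116 the counts stayed at 3 and 2 under these settings. IKBKE and TBK1, and below ZC3H12A, PTGS2, CD83 and CCL5, are named because a count was small, and were chosen after their values were seen. REL, the gene of the subunit c-Rel, fell in both: from 39.3 ± 0.569 to 35.0 ± 2.64 CPM in MCF10A (SD, n = 3; log2 -0.19, SE 0.073, adjusted p 0.028) and from 25.5 ± 4.55 to 16.5 ± 2.41 CPM in HCT116 (-0.63, SE 0.123, adjusted p 1.6e-04). The smaller change, in MCF10A, was not called without MCF10A NIR replicate 2 or 3 or MCF10A IR replicate 3 (-0.14 to -0.18), nor with upper-quartile factors (-0.11) or with all 18 libraries in the fit (-0.20). CHUK, the gene of IKK-alpha, went from 68.5 ± 0.328 to 52.6 ± 2.28 CPM in MCF10A (-0.40, SE 0.058, adjusted p 9.5e-07) and from 97.9 ± 6.41 to 112 ± 2.51 CPM in HCT116 (0.21, SE 0.063, adjusted p 0.0081). NFKBIE, an IkappaB gene, rose in MCF10A (0.40, SE 0.141, adjusted p 0.018), a call lost without MCF10A NIR replicate 3 (0.30) or MCF10A IR replicate 1 (0.34) or 3 (0.33). BCL3, which codes for a nuclear IkappaB protein, fell in HCT116 (-0.69, SE 0.129, adjusted p 8.2e-05). IKBKB and IKBKG, coding for the other kinase subunit and the scaffold NEMO, were at 64.8 ± 3.98 and 64.4 ± 0.441 CPM and at 6.97 ± 0.843 and 6.77 ± 0.756 CPM in MCF10A and were not called.

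Of 39 upstream genes, 14 rose and 8 fell among the 38 tested in MCF10A, and 13 rose and 9 fell among the 36 tested in HCT116, with medians of 0.13 and 0.10. These counts stand against 26.2% higher and 29.2% lower over all genes in MCF10A, and 25.3% and 27.2% in HCT116. With upper-quartile factors, 19 rose and 5 fell in MCF10A. TRAF1, an adaptor of TNF receptors, rose in MCF10A from 0.278 ± 0.102 to 2.65 ± 0.505 CPM (log2 3.20, SE 0.392, adjusted p 6.6e-08), and CYLD, a deubiquitinase that restrains the pathway, from 55.5 ± 4.77 to 98.3 ± 2.86 CPM (0.81, SE 0.059, adjusted p 3.1e-12). In HCT116 TRAF1 was at 1.98 ± 0.511 and 2.23 ± 0.634 CPM and CYLD at 33.3 ± 0.144 and 33.3 ± 0.552 CPM, with no call. LTBR, the lymphotoxin beta receptor that feeds the non-canonical pathway, rose in both lines, from 125 ± 0.675 to 143 ± 3.60 CPM in MCF10A (0.17, SE 0.045, adjusted p 0.0025) and from 41.8 ± 2.11 to 78.6 ± 4.79 CPM in HCT116 (0.92, SE 0.072, adjusted p 2.6e-10). The receptor genes IL1R1 (-0.96, SE 0.137, adjusted p 3.1e-06) and TNFRSF1A (-0.50, SE 0.078, adjusted p 9.4e-06) fell in HCT116, as TRAF2 did (-0.33, SE 0.107, adjusted p 0.013), and TRAF3 rose there (0.49, SE 0.065, adjusted p 1.2e-06). BIRC2, the neighbour and paralogue of BIRC3, rose in MCF10A (0.20, SE 0.049, adjusted p 0.0012). ATM was at 191 ± 9.59 and 194 ± 3.94 CPM in MCF10A and at 134 ± 8.51 and 136 ± 8.08 CPM in HCT116.

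Of 35 other target genes, 24 rose and 2 fell (ZC3H12A, CD83) in MCF10A among the 28 tested, with a median log2 change of 0.73. In HCT116, 11 rose and 2 fell (PTGS2, IER3) among the 22 tested, with a median of 0.45. The median over all genes was 0.00 and 0.01. Over all genes 26.2% rose and 29.2% fell in MCF10A, and 25.3% and 27.2% in HCT116. A gene could pass the filter through its IR libraries alone and then count as risen, so these counts and medians are descriptions. CXCL5, BCL2A1 and MMP9 rose in MCF10A but did not pass the filter between the NIR lines, and are named for that reason. The same limit holds for the core and upstream lists. The inflammatory cytokine gene IL1B rose in MCF10A from 313 ± 21.3 to 961 ± 73.6 CPM (log2 1.60, SE 0.052, adjusted p 7.3e-20), IL1A from 426 ± 25.6 to 817 ± 5.93 CPM (0.92, SE 0.042, adjusted p 1.5e-16) and the chemokine gene CXCL8 from 131 ± 9.37 to 356 ± 25 CPM (1.42, SE 0.054, adjusted p 1.8e-18). In HCT116 IL1B went from 0.528 ± 0.0817 to 1.99 ± 0.153 CPM (1.92, SE 0.376, adjusted p 1.6e-04), while IL1A and CXCL8 were at 0.951 ± 0.119 and 5.38 ± 0.383 CPM and then at 1.41 ± 0.364 and 5.91 ± 1.48 CPM, with no call. The chemokine genes CXCL1 (0.74, SE 0.045, adjusted p 5.0e-14) and CXCL2 (0.72, SE 0.066, adjusted p 2.6e-10) rose in MCF10A and lay at or below 1.56 CPM on average in HCT116. The interaction test called the difference in response for CXCL8 (-1.32, adjusted p 2.2e-07) and CXCL2 (-0.86, adjusted p 0.018). It did not for IL1A (-0.40, adjusted p 0.135) or CXCL1 (-0.18, adjusted p 0.621). Without irradiation the target list had 17 genes lower and 3 higher (IER3, LCN2, CCL5) in HCT116, with a median of -1.41, among 25 tested, where 36.1% of all genes were lower and 38.7% higher. A gene low in HCT116 could pass the filter through MCF10A alone, so that count is a description.

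Of the targets named next, LCN2 and IER3 were called higher in HCT116 NIR than in MCF10A NIR. BCL2L1 (log2 0.06) and IRF1 (log2 -0.16) were not called between the NIR lines. LCN2, which codes for an iron-sequestering secreted protein, rose in both lines and was the higher of the pair in HCT116, at 0.862 ± 0.402 and 5.82 ± 0.775 CPM in MCF10A (2.72, SE 0.278, adjusted p 2.2e-09) and 5.48 ± 0.769 and 29.6 ± 2.02 CPM in HCT116 (2.44, SE 0.12, adjusted p 7.9e-14). In the mixtures, which were nearly all HCT116 RNA, LCN2 was at 1.59 ± 0.432 and 6.5 ± 1.45 CPM. The stress gene IER3 rose in MCF10A (0.48, SE 0.067, adjusted p 5.6e-07) and fell in HCT116 (-0.79, SE 0.093, adjusted p 1.9e-07). TNFAIP2 rose in both, by 0.52 (SE 0.064, adjusted p 5.5e-08) and 0.49 (SE 0.076, adjusted p 9.7e-06), as did the anti-apoptotic gene BCL2L1, by 0.77 (SE 0.049, adjusted p 1.6e-13) and 0.40 (SE 0.063, adjusted p 1.0e-05). The transcription factor gene IRF1 rose in HCT116 from 12.3 ± 1.17 to 20.4 ± 2.24 CPM (0.75, SE 0.116, adjusted p 9.6e-06) and was not called in MCF10A, with 9.63 to 13.2 CPM in NIR and 13.6 to 15.4 CPM in IR libraries. The difference in response of IRF1 was 0.41 (adjusted p 0.076) and was not called in the interaction test. Nor was that of NFKBIE (-0.17, adjusted p 0.575) or TRAF2 (-0.26, adjusted p 0.143), given above for 1 line. SOD2, which codes for the mitochondrial superoxide dismutase, rose in MCF10A from 1055 ± 58.7 to 1289 ± 24.8 CPM (0.27, SE 0.040, adjusted p 1.9e-06). In HCT116 SOD2 was called (0.16, SE 0.068, adjusted p 0.0473), but not without HCT116 NIR replicate 2 or 3 or HCT116 IR replicate 2 or 3 (0.09 to 0.18). IL6 rose in MCF10A from 2.46 ± 0.457 to 3.81 ± 0.254 CPM (0.60, SE 0.222, adjusted p 0.023), a call lost without replicate 1 or 3 of either treatment (0.53 to 0.59) and with all 18 libraries in the fit. The chemokine gene CCL20 rose in MCF10A from 59.1 ± 8.44 to 73.1 ± 3.01 CPM (0.28, SE 0.075, adjusted p 0.0019), and was not called with all 18 libraries (adjusted p 0.067). TNF, the best known inducer of the pathway, was at most at 0.254 ± 0.229 CPM in any group and was not tested. VCAM1 had no count in any monoculture library.

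**Figure D5:**
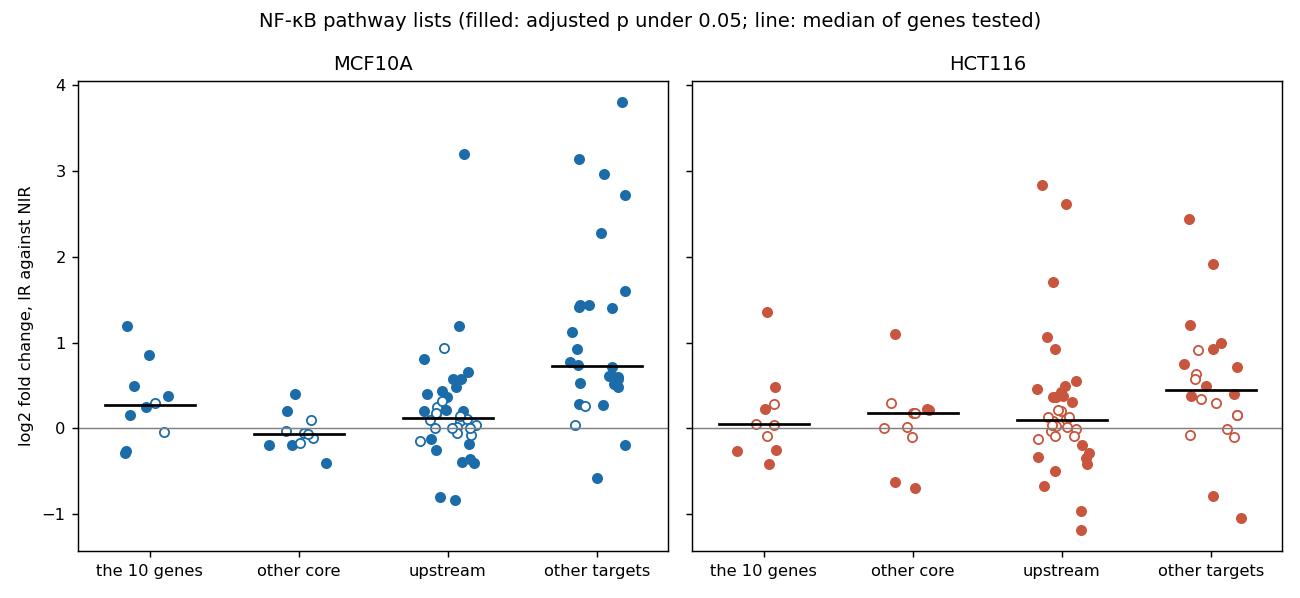
Log2 fold change of IR against NIR (vertical axis) in MCF10A (left) and HCT116 (right) for the 10 genes and the other core, upstream and target genes that could be tested; filled points have an adjusted p under 0.05 and lines are medians. The median of the target list is 0.73 in MCF10A and 0.45 in HCT116, and those of the core list are -0.07 and 0.18.

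Likeness across the 18 libraries is given as the correlation of log2(CPM + 1), over points that share lines and treatments. NFKB1, NFKBIA, NFKBIZ, TNFAIP3, TNIP1, BIRC3 and ICAM1 correlated with each other at 0.91 to 0.99, and RELB with these 7 at 0.71 to 0.87. NFKB2 correlated negatively with each of these 7, from -0.67 with ICAM1 to -0.82 with NFKB1, and RELA lay between -0.17 and 0.00 with them. Outside the 10, among 11311 genes with a mean of at least 5 CPM, TNFAIP3 was closest to SPATA18, VNN1 and PLD5 (Pearson r 0.998 each over 18 libraries) and NFKBIA to PRR5L (0.995), DMD (0.994) and ZC3H12A (0.994). For ICAM1 the closest were IGF2R (0.996), PRNP (0.995) and PXDN (0.994), and for TNIP1 they were CSF3 (0.998), S100A9 (0.997) and LDOC1 (0.997). BIRC3 was closest to BNC1, SOX15 and ZNF354C (0.997 each), NFKBIZ to ITGA1 (0.993) and ARPC5 (0.992), and NFKB1 to GDI2 (0.993), ENAH and AZI2 (0.992 each). The subunit genes with a smaller gap between the lines had looser companions: SESN3 (0.970), STYK1 (0.967) and SAT1 (0.962) for NFKB2, GTPBP2 (0.925), PTPRF (0.913) and MAPK7 (0.897) for RELA, and TIGD5 (0.936), TRAPPC12 (0.935) and B2M (0.932) for RELB. The libraries share lines and treatments, so these values are descriptions and carry no test.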

How the data were processed

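Poly(A)-selected, stranded paired-end RNA-seq was counted in 18 libraries. The authors deposited 1 table of raw counts per gene symbol for each library. Per the submitters' processing notes, fastp, STAR and featureCounts were used with GRCh38; versions, annotation and strand setting are not given in the sources used here. Values of 1 to 10 counts were even in 68.3% of cases, so fits with halved counts were added.

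Levels are CPM of the library total (mean ± SD, n = 3). Tests used edgeR 4.0.16 in R 4.3.3 (TMM factors, filterByExpr, quasi-likelihood, 2-sided, Benjamini-Hochberg over all genes tested), fitted on the groups compared. SE was derived from the fold change and F; 95% intervals are 1.96 SE each way. Alternatives were DESeq2 1.42.0, other scalings, no filter, halved counts, all 18 libraries, a replicate block and each library left out. The test was checked on simulated counts. Line-specific genes for the RNA share had at least 20 CPM in one line and stayed under 1 CPM across all libraries of the second. Replicate numbers were not used to pair libraries in the main fit. Residuals of same-numbered libraries correlated at -0.043 to 0.109, with 0.057, 0.005 and 0.109 between HCT116 NIR and mixed NIR cultures. Libraries with different numbers were not compared, so these values cannot decide whether the numbers mark pairs.

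Named genes were the 10 genes and 32 others set by symbol; of the latter, fold changes after irradiation of each line are printed where called. Companions by correlation were the 3 highest per gene, of which 1 is not reported here. The genes and lists were chosen with earlier results of these data known. Promoter sequences are from RefSeq, GRCh38.p14.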

Additional observations from a re-analysis of the deposited data

Results flagged for a closer look

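The irradiation response differed between the lines by the interaction test of edgeR's quasi-likelihood fit for 4 of the 10 genes, HCT116 minus MCF10A: NFKB2 by -0.82 on the log2 scale, NFKBIZ by -0.75, RELA by -0.71 and TNFAIP3 by -0.66. Over all 18179 genes 37.3% were called for this difference, 21.9% lower and 15.4% higher. The first 3 rose in MCF10A and fell in HCT116, and TNFAIP3 rose in MCF10A. The median over all genes in that fit was -0.10. Mitochondrially encoded genes took 5.10% to 6.35% of counts in MCF10A and 8.42% to 12.3% in HCT116 monocultures. With them left out of the fit, the median was -0.01 and all 4 differences were still called. NFKB1 (0.22, adjusted p 0.0472) and BIRC3 (0.28, adjusted p 0.0056) were then called too, both above 0. Line and medium cannot be told apart, and their part in these differences was not tested.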

How the results depend on the processing

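Each of 10 genes in 9 comparisons was refitted under 8 other settings and with each library left out. Direction and side of the threshold were kept in 1283 of 1380 refits, a call was lost in 34 and gained in 32, and the sign turned in 31. The cause of these changes was not tested. Of the 10 genes, those called between mixed and HCT116 cultures were 1 in the NIR comparison with all 18 libraries in the fit, and 1 for the difference in response under DESeq2, without the filter and with all 18 libraries. In the IR comparison the 2 calls became 0 to 2 with a library left out (1 without mixed IR replicate 2) and 3 under the replicate block. With upper-quartile factors, the sign turned for BIRC3 in MCF10A (0.04) and for NFKB2 between irradiated lines (0.01); with all 18 libraries, it turned for TNIP1 between irradiated mixtures and HCT116 (0.02). Leaving out single libraries turned signs among uncalled values: NFKBIA (-0.07 to 0.25) and TNIP1 (-0.05 to 0.10) in HCT116; between irradiated mixtures and HCT116, ICAM1 (-0.21 to 0.09), NFKB1 (-0.04 to 0.04), NFKBIZ (-0.17 to 0.06), RELB (-0.04 to 0.11) and TNIP1 (-0.11 to 0.05); and RELB in the NIR mixtures (-0.03 to 0.17). The same held for the difference between lines of RELB (-0.00 to 0.39) and those of mixtures and HCT116 of BIRC3 (-0.02 to 0.19), ICAM1 (-0.04 to 0.26), NFKBIA (-0.14 to 0.27) and RELB (-0.18 to 0.03).

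Upper-quartile factors moved the median over all genes between NIR lines from 0.05 to 0.25, and the share of calls that were higher from 51.8% to 62.4%. After irradiation of MCF10A that share went from 47.4% to 57.5%. For the difference between lines it went from 41.3% to 51.9% without the filter, 51.8% with all 18 libraries and 52.5% without mitochondrially encoded genes. With all 18 libraries, NFKBIZ (adjusted p 0.055) and TNIP1 (adjusted p 0.107) were not called in MCF10A, nor NFKB2 between irradiated lines (-0.10, adjusted p 0.126). The replicate block treats same-numbered libraries as paired. Under it, BIRC3 in HCT116 had an adjusted p of 0.063, NFKBIA between irradiated mixtures and HCT116 one of 0.037, and no other call of the 10 genes changed. Without the filter, RELA between NIR lines (0.15, adjusted p 0.067) and BIRC3 in HCT116 (0.21, adjusted p 0.094) were not called. With 3 libraries a group, the intervals in HCT116 were widest for ICAM1, which had counts from 25 upwards there. Counts of called genes over all genes moved by over 1.5 times between NIR mixtures and HCT116 (335, against 576 with DESeq2, 671 without the filter, 768 with all 18 libraries, 716 with the block, and 145 and 178 without mixed replicate 1 or HCT116 replicate 2). They did so between the IR cultures (1467, against 2220 with the block, 866 and 914 without mixed replicate 2 or 3) and for the difference in response of mixtures and HCT116 (150, against 327 with DESeq2, 336 without the filter and 64 to 93 without 1 of 8 libraries).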
